A study of Rattus norvegicus with 16 samples.

Results

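A set of 10 genes that mark blood vessels were followed in the adrenal glands of p27Kip1-mutant and wild-type rats. They are Pecam1, Kdr, Flt1, Tek, Tie1, Vwf, Emcn, Esm1, Plvap and Eng. Members were all probe sets of the deposited expression table whose only gene symbol in the platform annotation was 1 of these names. All 10 genes were found, with 13 probe sets of the 31042 that are not controls, and with 10 of 14217 genes. Flt1 had 3 probe sets, Kdr had 2 and each other gene had 1.

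Endothelial cells line the vessels that carry catecholamines and steroids out of the adrenal gland. Growth of new vessels runs mainly through VEGF-A, which signals through Kdr (VEGFR2), while Flt1 (VEGFR1) binds VEGF-A and Pgf and also exists as a soluble form that holds these ligands back. A second system sets vessel stability: angiopoietin 1 activates the receptor Tek (Tie2), angiopoietin 2 mostly opposes it, and Tie1 is its partner receptor. Pecam1 is a junction protein of all endothelium, Vwf a clotting factor stored in endothelial granules, Emcn a sialomucin of capillaries and veins, and Plvap the diaphragm protein of fenestrated capillaries such as those of endocrine glands. Eng (endoglin) is a co-receptor for BMP9 and TGF-beta, and Esm1 (endocan) is a secreted proteoglycan known as a mark of tip cells, the leading cells of a sprouting vessel.

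The 16 expression arrays, 1 RNA sample each, fell into 4 groups. Adrenal medullary hyperplasia came from p27Kip1-mutant rats aged 2 months (n = 8 arrays), and pheochromocytoma, the chromaffin cell tumour of the medulla, from p27Kip1-mutant rats aged 8 months (3 arrays) or 9 months (1 array). Wild-type adrenomedullary tissue was hybridised as pools of littermates. The young wild type consisted of 2 pools of rats aged 2 months, of 2 and 3 animals. The older wild type consisted of a pool of 2 animals aged 10 months and a pool of 2 animals aged 12 and 17 months. The strain label of all rats was Sprague-Dawley white eye/Wistar-Kyoto. Whether the mutants were homozygous is not stated in the labels. A pool averages its animals, so wild-type spread is that between pools. The tumour rats were younger than the animals of the older pools.

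Values are log2 expression values per probe set, so that a difference of 1 is a doubling; they lay between 2.41 and 14.54, with array medians of 6.51 to 6.61 and first quartiles of 4.71 to 4.93. Arrays of a group correlated at 0.981 to 0.996 and arrays of different groups at 0.940 to 0.987. The number of arrays limits the precision. Xist, the transcript that silences an X chromosome in female cells, was at 11.29 or above on 9 arrays and at 4.32 or below on 7, and it went against the labelled sex on 6 of 16 arrays: hyperplasia arrays 1, 2, 5 and 6 and both young pools. Sex was therefore left out of the fit. By Xist the groups were not alike in make-up. Among the tumours only number 4 had low Xist, as did young pool 2, older pool 2 and hyperplasia arrays 1, 2, 7 and 8. The part of sex is thus not separated from the group differences in the main fit. The 11 measured chromaffin cell markers averaged 11.86 to 12.81 on every array, and the 11 measured adrenal cortex markers averaged 10.34 to 12.41, so cortical transcripts were present in all groups. The means of the cortex markers were 11.63 to 11.81 in the young pools, 10.48 to 11.29 in hyperplasia, 12.02 to 12.41 in the older pools and 10.34 to 11.68 in the tumours. The signal of the hexokinase control at its 3' end exceeded that at its 5' end by 1.07 to 1.18 in young wild type, 1.21 to 1.63 in hyperplasia, 2.29 to 2.92 in older wild type and 2.16 to 3.30 in the tumours, a measure of RNA quality that moved with age. Neither probe set of Cdkn1b, the gene of p27Kip1, checks the genotype, because where it lies relative to the mutation is not stated. Probe set 1373812_at averaged 10.96 in young wild type, 11.70 in hyperplasia, 10.59 in older wild type and 11.53 in the tumours, and 1369192_at averaged 6.90, 6.09, 4.14 and 4.14 in the same order.

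**Figure D1:**
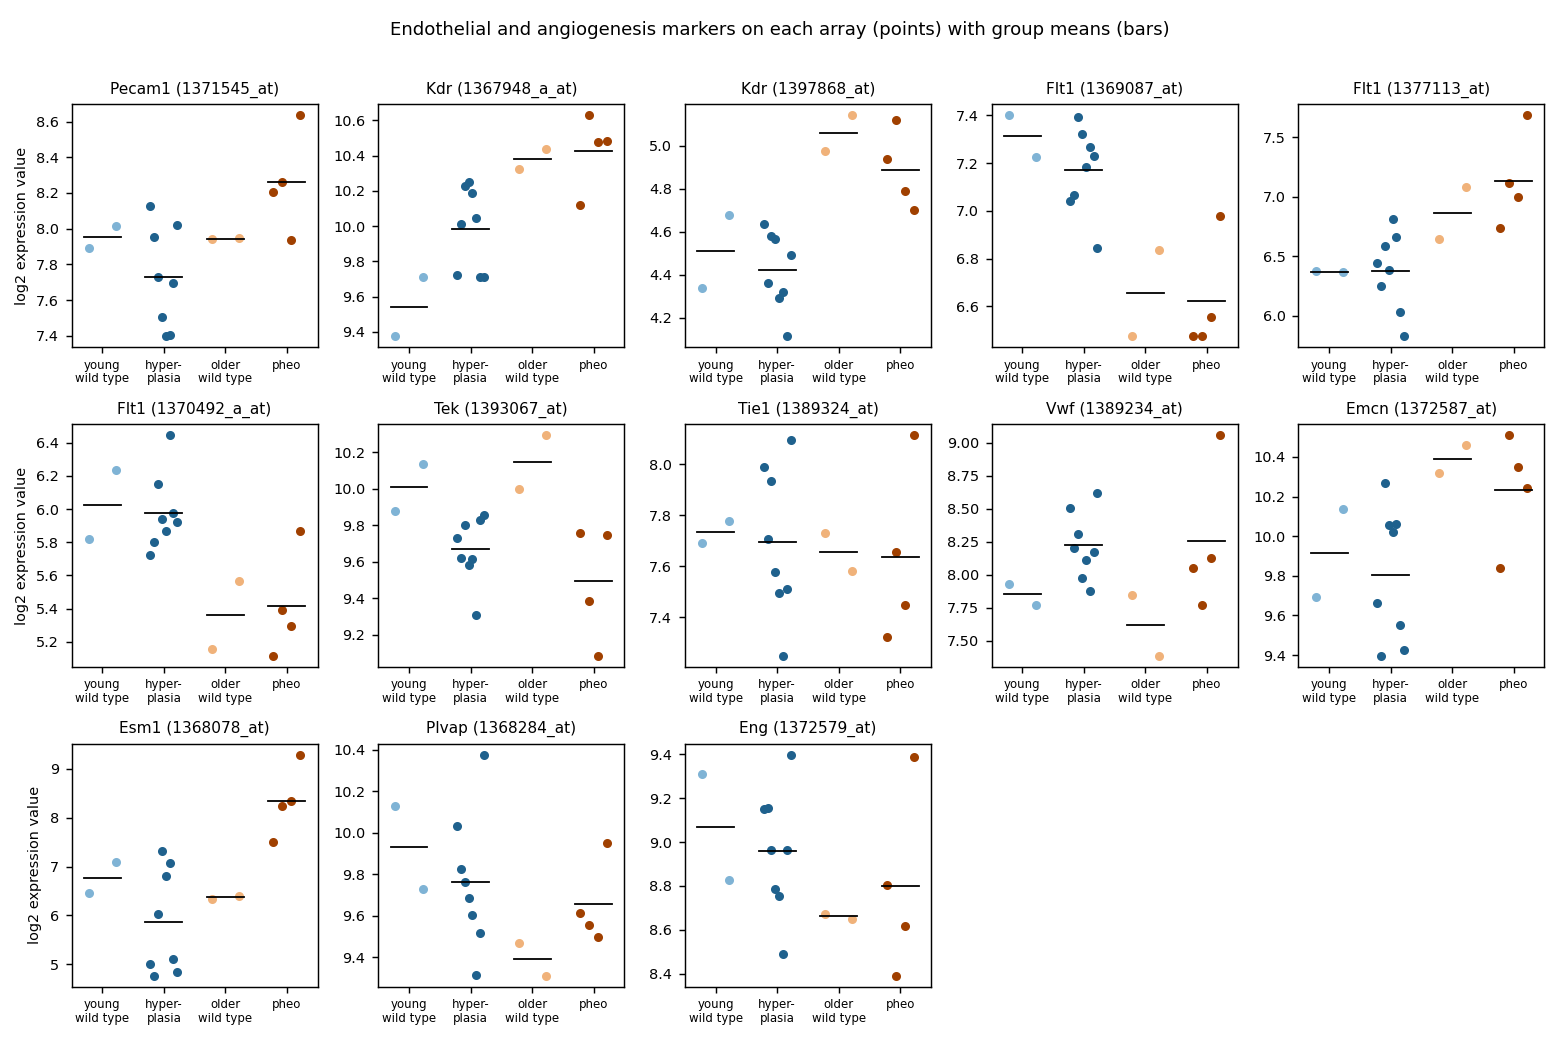
Log2 expression value (vertical axis) of the 13 probe sets in the 4 groups (horizontal axis; pheo, pheochromocytoma). Points are arrays and bars are group means; the 4 tumours lie above every other array for Esm1, and the 3 probe sets of Flt1 run in different directions.

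No vessel marker passed the test in hyperplasia against young wild type; the differences ran from -0.90 for Esm1 to 0.44 for Kdr. In that comparison, 0 of 13 member probe sets passed an adjusted p of 0.05 in limma's moderated test with Benjamini-Hochberg adjustment, where 7.40% of all probe sets did, and 1 of 13 had an unadjusted p under 0.05. The count was also 0 with the 4 hyperplasia arrays whose labelled sex went against Xist left out. The median difference over the members was -0.11, beside -0.02 over all probe sets. Groups did not overlap for 2 of 13 members, Kdr higher and Tek lower in hyperplasia, where 19.2% of all probe sets did not overlap. In bulk tissue, a change in endothelial cell number and a change in RNA per endothelial cell cannot be told apart. In this comparison 8.89% of all genes passed. With the mean of the cortex markers in the fit, fewer of all probe sets passed, as the last section gives. That mean did not overlap between hyperplasia (10.48 to 11.29) and the young pools (11.63 to 11.81). That fit therefore cannot tell cortex content from group, and calls lost in it are not read as a result. The cortex markers moved with this comparison: 3 of 11 (Scarb1, -1.22; Star, -0.96; Fdx1, -0.80) fell, though none of the 3 passed without young pool 1 or without young pool 2, and with their mean in the fit 0 of 13 members passed.

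Kdr, the main signalling receptor for VEGF-A, was at 9.38 and 9.71 in the young pools and ranged in hyperplasia from 9.71 to 10.25 with a median of 10.03 (1367948_a_at). Every hyperplasia array lay above both pools, the lowest only just. The difference was 0.44 ± 0.17 (SE; 95% interval 0.09 to 0.80; n = 8 against 2) and did not pass (adjusted p = 0.125, limma); without young pool 1 it was 0.27. Tek, the angiopoietin receptor, was at 9.88 and 10.14 in the young pools and at 9.31 to 9.86 (median 9.67) in hyperplasia. All 8 arrays lay below both pools, at a difference of -0.34 ± 0.17 (SE) that did not pass (adjusted p = 0.252, limma) and was -0.21 without young pool 2. Esm1, the tip cell mark, was at 6.45 and 7.08 in the young pools and at 4.77 to 7.32 (median 5.57) in hyperplasia. Its 8 hyperplasia arrays spanned 2.55 log2 units, and the difference of -0.90 ± 0.63 (SE; 95% interval -2.23 to 0.43) did not pass (adjusted p = 0.430, limma); without young pool 2 it was -0.59.

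The tumours differed from older wild type at 1 of 13 member probe sets, Tek, which fell; 14.3% of all probe sets passed in this comparison, 5.95% downwards. The median difference was 0.06 over the members and -0.01 over all probe sets. Groups did not overlap for 3 of 13 members, Tek lower and Esm1 and Plvap higher, where 39.8% of all probe sets did not overlap. The cortex markers moved with this comparison too: 9 of 11 fell, where 16.8% of all genes passed. Among them was Mrap (-2.00, and -1.42 without older pool 2), which carries the corticotropin receptor to the cell surface. With the mean of the cortex markers in the fit, 0 of 13 members passed. Far fewer of all probe sets passed there than in the main fit, as the last section gives. The cortex mean did not overlap between the tumours (10.34 to 11.68) and the older pools (12.02 to 12.41). This fit therefore cannot tell cortex content from group, for the single genes below either, and calls lost in it are not read as a result.

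**Figure D2:**
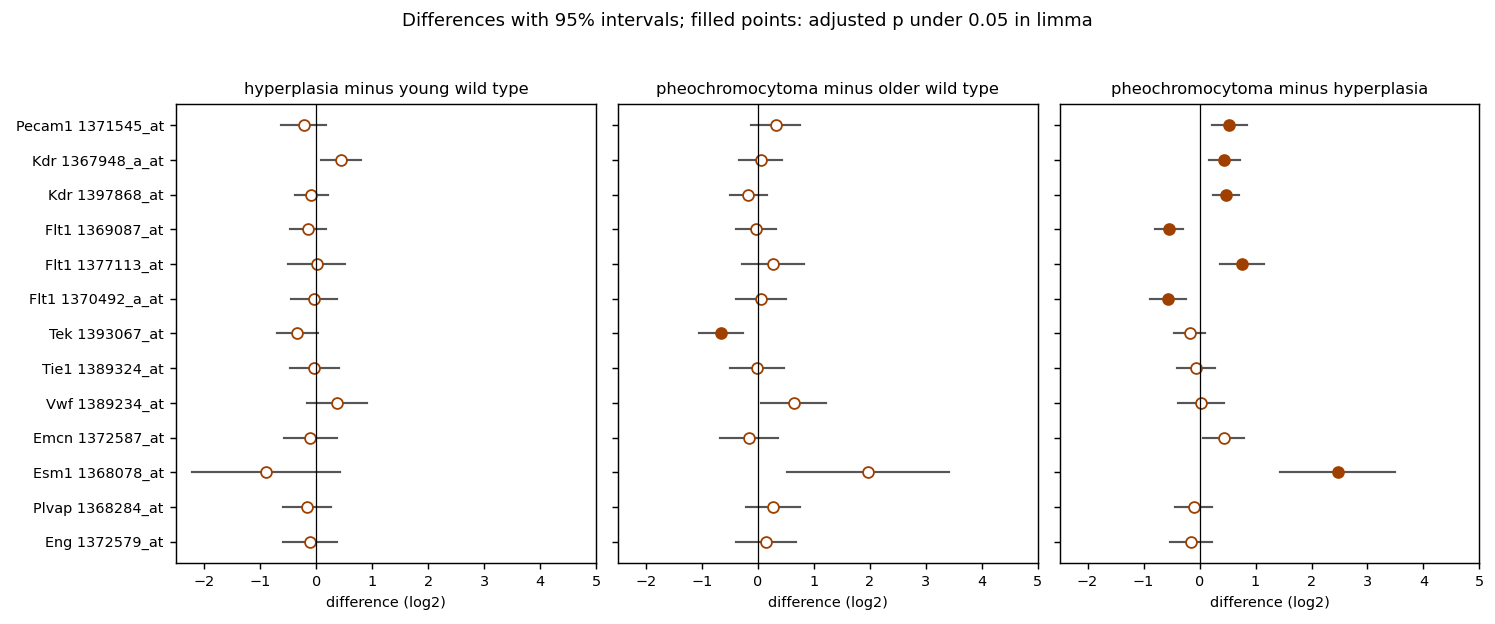
Differences between groups (log2, horizontal axis) of the 13 probe sets (vertical axis) with 95% intervals in 3 comparisons; filled points passed an adjusted p of 0.05 in limma. Filled points number 0 for hyperplasia against young wild type, 1 (Tek) for the tumours against older wild type and 7 for the tumours against hyperplasia.

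Tek was at 10.00 and 10.29 in the older pools and at 9.76, 9.38, 9.08 and 9.75 in tumours 1 to 4. All 4 tumours lay below both pools. The difference was -0.65 ± 0.19 (SE; 95% interval -1.05 to -0.26; n = 4 against 2; adjusted p = 0.0288, limma). It no longer passed without older pool 2 (-0.51, adjusted p = 0.313), without tumour 2 (-0.62, 0.0608) or without tumour 3 (-0.52, 0.0623), nor with the mean of the cortex markers in the fit (-0.58, 0.421). With the 4 hyperplasia arrays whose labelled sex went against Xist left out it passed (adjusted p = 0.0454), and with all 6 such arrays left out it did not (0.0560).

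Esm1 was at 6.34 and 6.40 in the older pools and at 7.49, 8.23, 8.35 and 9.28 in the tumours. The 4 tumours were the 4 highest of all 16 arrays. The difference from older wild type was 1.97 ± 0.69 (SE), a ratio of 3.91 with a 95% interval of 0.51 to 3.42 on the log2 scale, and its adjusted p of 0.0661 (limma) missed the threshold. It passed without tumour 1 (2.25, adjusted p = 0.0478) and without hyperplasia array 4 (0.0479), and it was 0.46 with the mean of the cortex markers in the fit (0.880). Against hyperplasia the tumours were higher by 2.47 ± 0.48 (SE), 5.53-fold, and this passed (adjusted p = 0.000694, limma); it passed in all 29 alternative analyses, at 2.15 to 2.75. The hyperplasia rats were 2 months old and the tumour rats 8 or 9 months, so tissue and age cannot be told apart there.

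Vwf, the granule clotting factor, was at 7.85 and 7.39 in the older pools and at 8.05, 7.77, 8.13 and 9.06 in the tumours. The lowest tumour lay below the higher pool, and the difference of 0.64 ± 0.28 (SE) did not pass (adjusted p = 0.136, limma); without tumour 4 it was 0.37 and without older pool 2 it was 0.40. Plvap, the fenestral diaphragm protein, was at 9.47 and 9.31 in the older pools and at 9.61, 9.56, 9.50 and 9.95 in the tumours. All 4 tumours lay above both pools, by a mean of 0.27 ± 0.23 (SE) that did not pass (adjusted p = 0.465, limma) and was 0.17 without tumour 4. Pecam1, the junction protein, was at 7.94 and 7.95 in the older pools and at 8.20, 8.26, 7.94 and 8.63 in the tumours. Its difference was 0.31 ± 0.21 (SE; adjusted p = 0.341, limma), with tumour 3 at the level of the pools, and it was 0.19 without tumour 4.

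The tumour difference was set against the hyperplasia difference in an interaction test. It passed at 0 of 13 member probe sets, where 0.0258% of all probe sets passed, and 1 of 13 had an unadjusted p under 0.05 in limma. That 1 was Esm1, whose difference was 2.87 ± 0.93 (SE) higher in the tumours than in hyperplasia (95% interval 0.90 to 4.83; adjusted p = 0.276).

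Between older and young wild type, 2 member probe sets rose and 1 fell, which is 23.1% of the 13, and 23.7% of all probe sets passed. Both that rose were of Kdr. The bright probe set was higher in older wild type by 0.84 ± 0.21 (SE; adjusted p = 0.00957, limma), with the older pools at 10.32 and 10.44. It no longer passed without young pool 1 (0.67, adjusted p = 0.0949) or without older pool 2 (0.78, 0.0601). The dim one (1397868_at) was at 4.34 and 4.68 in the young pools and 4.98 and 5.14 in the older ones, a difference of 0.55 ± 0.18 (SE; adjusted p = 0.0363, limma). It lay below the first quartile of its array on all 8 hyperplasia arrays, both young pools and 2 of 4 tumours. Flt1 (1369087_at) fell by 0.66 on the log2 scale (SE 0.19; adjusted p = 0.0222, limma). Without young pool 1 the Flt1 value was -0.57 (adjusted p = 0.128), without young pool 2 it was -0.74 (0.0512) and without older pool 1 it was -0.48 (0.169); the dim Kdr value was 0.38 (0.253) without young pool 1, 0.63 (0.0614) without older pool 1 and 0.47 (0.177) without older pool 2. The 3' to 5' signal of the hexokinase control differed between these groups, and its part in the members' values was not tested. Groups did not overlap for 9 of 13 members, where 61.9% of all probe sets did not overlap between 2 pools and 2 pools.

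Between the 2 mutant tissues, 5 member probe sets were higher in the tumours (Pecam1, both of Kdr, Flt1 1377113_at and Esm1) and 2 were lower (Flt1 1369087_at and 1370492_a_at). That is 53.8% of the 13, where 40.7% of all probe sets passed, and the median difference was 0.03 over the members and 0.01 over all. With the 4 hyperplasia arrays of discordant sex left out 7 passed, and with all 6 such arrays left out 6 did. The 40.7% belongs to the main fit, and no share over all probe sets is given for these fits. The hexokinase measure of RNA quality and age differed between these tissues as well, and their part was not tested. Pecam1 was higher by 0.53 ± 0.15 (SE; adjusted p = 0.00887, limma), with hyperplasia at 7.40 to 8.12 and a median of 7.71. The bright probe set of Kdr was higher by 0.44 ± 0.13 (SE; adjusted p = 0.0121, limma), with tumours at 10.12, 10.63, 10.48 and 10.48; without tumour 2 the adjusted p was 0.0529. The older pools lay inside the range of these tumours, and the difference of the tumours from them was 0.05 ± 0.18 (SE; adjusted p = 0.900). Emcn, the capillary sialomucin, was at 9.84, 10.51, 10.35 and 10.24 in the tumours, 10.32 and 10.46 in the older pools, 9.69 and 10.14 in the young pools and 9.40 to 10.27 (median 9.84) in hyperplasia. Its 0.43 ± 0.17 (SE) between the tumours and hyperplasia did not pass (adjusted p = 0.0568, limma), and it passed without hyperplasia array 3 (0.50, 0.0251), 4 (0.46, 0.0485) or 6 (0.47, 0.0483) and without tumour 1 (0.56, 0.0230). The groups did not overlap for 2 of 13 members, Esm1 and the dim Kdr probe set, where 26.4% of all probe sets did not overlap.

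The 3 probe sets of Flt1, the decoy and VEGF receptor, disagreed. In young wild type, 1377113_at was at 6.37 in both pools, and it was at 5.83 to 6.82 (median 6.41) in hyperplasia, 6.65 and 7.08 in older wild type and 6.74, 7.12, 7.00 and 7.68 in the tumours. The 2 others were lower in the older pools and the tumours than in the young pools and hyperplasia by their group means. Probe set 1369087_at was at 7.40 and 7.23, then 6.84 to 7.39 (median 7.21), then 6.48 and 6.84, then 6.48, 6.48, 6.56 and 6.98, in the same order of groups. Probe set 1370492_a_at was at 5.82 and 6.23, then 5.73 to 6.45 (median 5.93), then 5.15 and 5.56, then 5.12, 5.39, 5.29 and 5.87. From hyperplasia to tumours the 3 differed by 0.76 ± 0.18, -0.55 ± 0.12 and -0.56 ± 0.15 (SE; adjusted p = 0.00358, 0.00151 and 0.00685, limma). The mean of the 3 differed by -0.12 (adjusted p = 0.521), so no direction is given for Flt1 as a gene. Which transcript form each probe set reads was not analysed here.

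Tie1, the partner of Tek, and Eng, the BMP9 co-receptor, passed in 0 of the 5 comparisons. Tie1 was at 7.69 and 7.78 in the young pools, 7.25 to 8.09 (median 7.64) in hyperplasia, 7.73 and 7.58 in the older pools and 7.32, 7.65, 7.45 and 8.11 in the tumours. The ranges of all 4 groups overlapped. Eng was at 9.31 and 8.83, 8.49 to 9.40 (median 8.96), 8.67 and 8.65, and 8.80, 8.39, 8.62 and 9.39. For Eng the tumour difference was 0.14 ± 0.25 (SE; 95% interval -0.39 to 0.67) and the hyperplasia difference -0.11 ± 0.23 (95% interval -0.60 to 0.38), and neither passed (adjusted p = 0.756 and 0.831, limma). Single arrays set both signs: the first was -0.056 without tumour 4 and the second 0.13 without young pool 1. Vwf was at 7.93 and 7.77 in the young pools and at 7.88 to 8.62 (median 8.19) in hyperplasia, and Plvap at 10.13 and 9.73 and at 9.31 to 10.38 (median 9.72). Hyperplasia overlapped the young pools for both.

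The 8 hyperplasia arrays fell apart by Xist for 4 of 13 member probe sets, where 15.9% of all probe sets did not overlap between the same 2 sets of arrays. The sets were formed from Xist, a measured value, and are given as a description with no test. Esm1 was at 6.03, 7.32, 6.82 and 7.07 on the arrays with high Xist (3 to 6) and at 5.01, 4.77, 5.10 and 4.83 on those with low Xist (1, 2, 7 and 8). The gap between the sets, from 5.10 to 6.03, was wider than the spread of the low set and narrower than that of the high set. The low set was dim: first quartiles of the arrays were 4.71 to 4.93, and array 2 lay below its own of 4.84. Emcn was at 10.02 to 10.27 against 9.40 to 9.66, and the bright Kdr probe set at 10.05 to 10.25 against 9.71 to 10.01. Eng ran the other way, at 8.49 to 8.96 against 8.96 to 9.40, and the sets met at 8.96. Angpt2, the ligand that opposes Tek activation, was at 12.18 to 12.33 against 11.66 to 11.90, whereas Vegfa overlapped. In the other groups Esm1 did not follow Xist: the tumour with low Xist had the highest Esm1, 9.28, and the older pools with high and low Xist were at 6.34 and 6.40. Nr4a1, an early response gene chosen after its values were seen, was at 10.40 to 10.91 against 7.03 to 8.00. Cortex marker means overlapped, at 10.48 to 10.97 against 10.69 to 11.29, as did the 3' to 5' signal of hexokinase, at 1.21 to 1.55 against 1.35 to 1.63. That signal was 1.37 to 1.58 against 1.52 to 2.01 for beta-actin and 0.04 to 0.21 against 0.18 to 0.43 for GAPDH. Both overlapped only in part, with the low Xist set reaching higher, and the part of RNA quality was not tested. The part of sex, handling or any other difference between the sets was not tested.

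**Figure D3:**
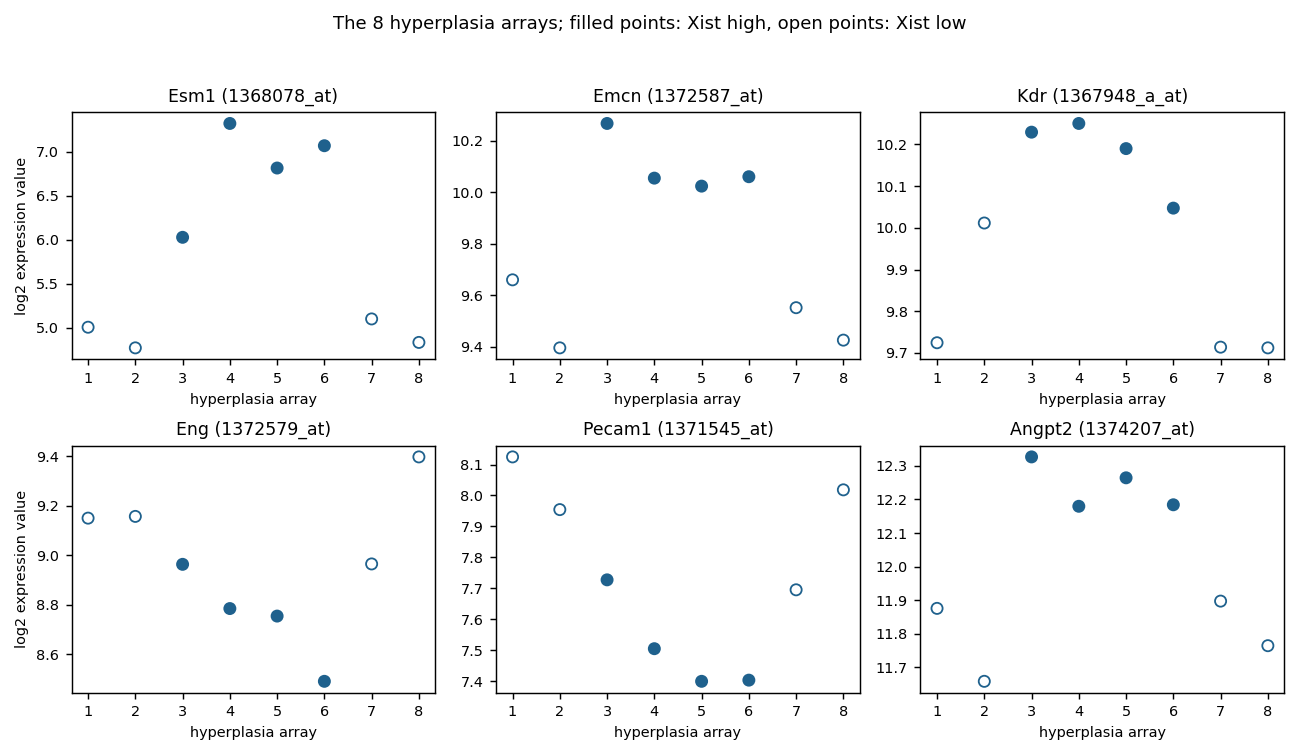
Log2 expression value (vertical axis) on hyperplasia arrays 1 to 8 (horizontal axis) of Esm1, Emcn, Kdr, Eng, Pecam1 and Angpt2. Filled points are the 4 arrays with high Xist and open points the 4 with low Xist; the sets separate for Esm1, Emcn, Kdr and Angpt2, meet at 8.96 for Eng and overlap for Pecam1.

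The promoters of these 4 members are shown because the genes separated the same arrays, Esm1, Emcn and Kdr in 1 direction and Eng in the other. RefSeq's table for GRCr8 held 7 of the 10 members, all but Pecam1, Tek and Vwf, as windows of 300 bases around the transcript start. Capitals mark the letters CAGGAA or CCGGAA, a core that ETS factors such as Erg and Fli1 are known to bind in endothelial genes, or their reverse complements TTCCTG and TTCCGG. The Esm1 window is chr2:46609003-46609302 (plus strand), Emcn chr2:228564289-228564588 (plus), Kdr chr14:32571813-32572112 (plus) and Eng chr3:36332029-36332328 (plus).
Esm1: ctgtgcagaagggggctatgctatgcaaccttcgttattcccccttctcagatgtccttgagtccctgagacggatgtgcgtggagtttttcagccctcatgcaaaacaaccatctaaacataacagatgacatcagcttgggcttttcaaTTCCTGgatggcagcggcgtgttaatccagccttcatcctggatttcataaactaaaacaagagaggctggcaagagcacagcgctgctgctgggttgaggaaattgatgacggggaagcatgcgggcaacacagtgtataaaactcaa
Emcn: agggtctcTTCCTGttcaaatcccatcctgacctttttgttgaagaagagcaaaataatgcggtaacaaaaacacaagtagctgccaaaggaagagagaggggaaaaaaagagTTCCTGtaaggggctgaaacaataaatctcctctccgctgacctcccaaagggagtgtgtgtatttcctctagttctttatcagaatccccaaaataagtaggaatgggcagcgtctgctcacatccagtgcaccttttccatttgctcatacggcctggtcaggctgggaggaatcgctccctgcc
Kdr: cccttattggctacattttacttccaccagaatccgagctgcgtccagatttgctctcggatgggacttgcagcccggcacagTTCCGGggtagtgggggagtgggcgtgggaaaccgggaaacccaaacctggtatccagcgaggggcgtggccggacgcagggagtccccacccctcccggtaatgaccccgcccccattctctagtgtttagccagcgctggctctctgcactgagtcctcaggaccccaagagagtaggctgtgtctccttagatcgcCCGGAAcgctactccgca
Eng: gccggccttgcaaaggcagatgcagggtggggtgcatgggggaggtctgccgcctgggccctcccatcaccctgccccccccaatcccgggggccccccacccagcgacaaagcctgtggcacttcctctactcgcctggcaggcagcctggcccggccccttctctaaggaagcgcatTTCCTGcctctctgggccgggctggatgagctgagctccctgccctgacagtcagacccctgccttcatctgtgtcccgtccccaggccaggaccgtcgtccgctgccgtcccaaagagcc
Each of the 4 windows held the letters, Emcn and Kdr at 2 places and Esm1 and Eng at 1. Of the 7 members in the table, 5 held them, the fifth being Plvap, and 40.0% of 33469 promoters of the same length did. The hypoxia response letters ACGTG or GCGTG, on either strand, were in 3 of 7 (Kdr, Esm1 and Flt1) and in 41.6% of all, and the GATA letters AGATAA in 0 of 7 and 11.6%. Such matches are letters and not shown sites.

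Tumour 4, from the only tumour rat aged 9 months and the only tumour with low Xist, stood above the other 3 for most members. It had the highest value of the 4 tumours on 9 of 13 member probe sets, as it did on 25.2% of all probe sets. It was the highest of all 16 arrays on 5, Pecam1, Flt1 1377113_at, Tie1, Vwf and Esm1, as on 7.80% of all. Vwf was at 9.06 there against 7.77 to 8.13 in the other tumours, Tie1 at 8.11 against 7.32 to 7.65 and Eng at 9.39 against 8.39 to 8.80. Kdr, Emcn and Tek were not highest in tumour 4. The mean of the 10 members was 9.19 there and 8.57 to 8.69 in the others. Of 33 other endothelial junction, surface and lineage genes, 26 were highest in this tumour, as were 10 of 14 other vascular receptors and 9 of 12 pericyte and smooth muscle markers. For these lists of genes only the 25.2% over all probe sets is given. Lists of other cells held genes highest there too: 6 of 9 fibroblast markers, whose mean was 8.99 against 8.46 to 8.66, and 9 of 15 macrophage and leukocyte markers, whose mean of 8.74 lay within the 8.36 to 8.78 of the other tumours. Tumour 4 also had the highest mean for chromaffin cell markers (12.75 against 12.41 to 12.67) and red blood cell genes (6.62 against 5.91 to 6.35). The same held for angiogenic ligands, vascular matrix and inhibitor genes, and hypoxia-inducible factors and sensors. The mean of the Schwann and sustentacular markers, 6.35, lay within the 6.22 to 6.49 of the other tumours. The cortex markers averaged 10.34 in tumour 4, below the 11.05 to 11.68 of the other tumours, and 0 of 11 were highest there; the hexokinase signal was 2.99, inside the range of the others. The part of the lower cortex content in these values was not tested.

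**Figure D4:**
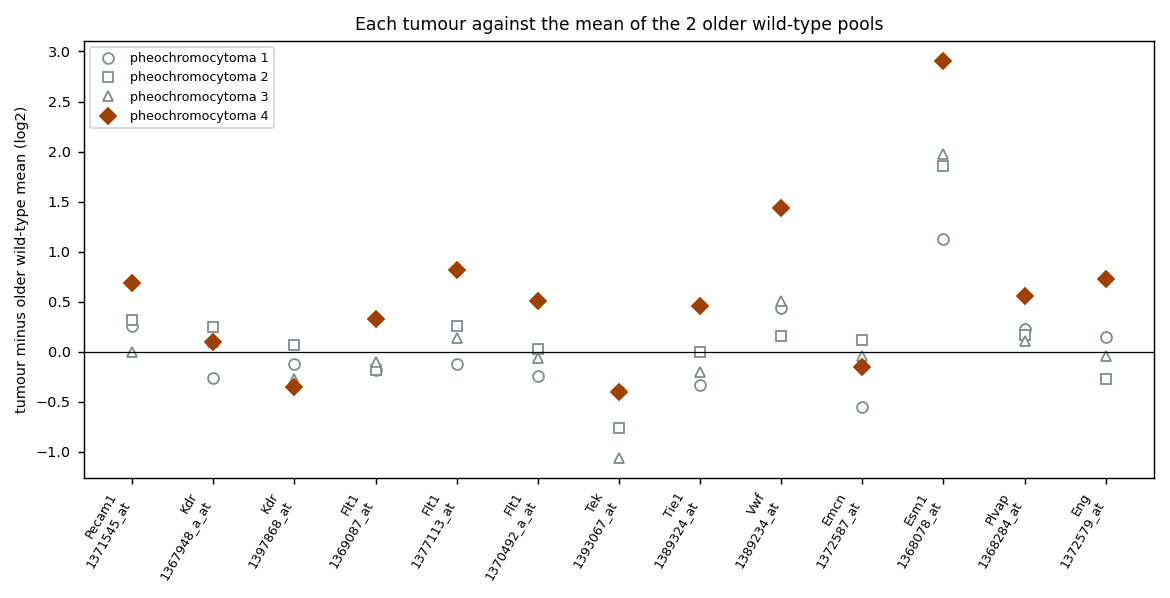
Difference of each tumour from the mean of the 2 older wild-type pools (log2, vertical axis) for the 13 probe sets (horizontal axis); filled diamonds are tumour 4 and open symbols tumours 1 to 3. Tumour 4 is the highest tumour on 9 of 13 probe sets, and all 4 tumours lie above 0 for Esm1, Plvap and Vwf and below 0 for Tek.

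Among 14 measured angiogenic ligands, represented by their brightest probe set, 1 rose and 3 fell in hyperplasia, and 2 rose and 0 fell in the tumours; 8.89% and 16.8% of all genes passed in these comparisons. The median ligand differed by -0.37 in hyperplasia and by -0.10 in the tumours, beside -0.01 and 0.01 over all genes. Vegfa, the main ligand of Kdr, was at 10.05 and 9.74 in the young pools, 9.84 to 10.25 in hyperplasia, 10.45 and 10.35 in the older pools and 10.20, 10.31, 10.60 and 11.24 in the tumours. Its differences of 0.18 ± 0.19 and 0.19 ± 0.21 (SE) did not pass (adjusted p = 0.645 and 0.594, limma), and the second was -0.03 without tumour 4. Angpt2 was at 10.69 and 10.12 in the older pools and at 11.32, 11.44, 11.17 and 11.22 in the tumours. All 4 tumours lay above both pools, and Angpt2 rose by 0.88 ± 0.19 (SE; adjusted p = 0.00663, limma), beside the fall of its receptor Tek; without older pool 2 it was 0.60 (adjusted p = 0.191) and with the cortex markers in the fit 0.60 (0.385). In hyperplasia it was at 11.66 to 12.33 against 11.71 and 11.57, a difference of 0.38 ± 0.17 (SE) that did not pass (adjusted p = 0.205, limma). Pgf, the ligand of Flt1, was at 5.91 and 6.14 in the older pools and at 7.10, 6.41, 6.96 and 8.85 in the tumours. It rose by 1.31 ± 0.42 (SE; adjusted p = 0.0488, limma), with tumour 4 far above the rest; without that tumour the rise was 0.80 (adjusted p = 0.0180), and without older pool 1 or 2 it was 1.19 (0.176) or 1.42 (0.213). It passed in 2 of 16 analyses without 1 array.

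**Figure D5:**
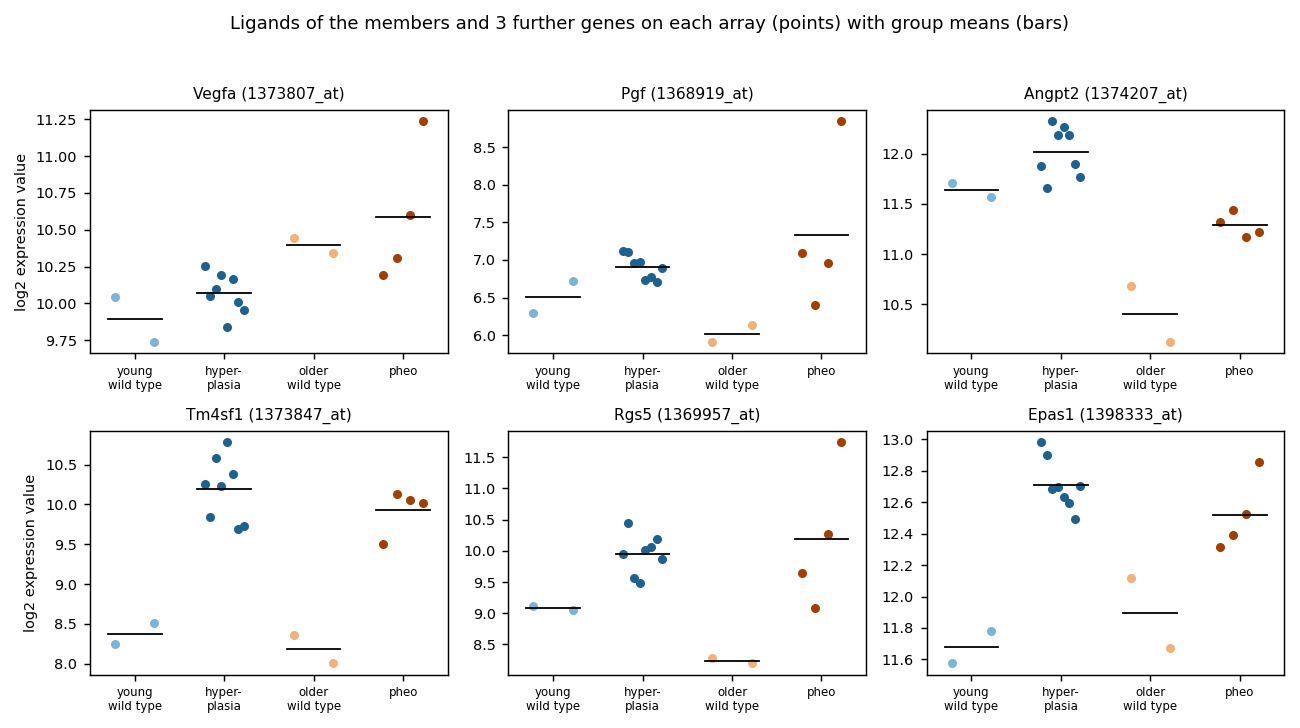
Log2 expression value (vertical axis) of the ligands Vegfa, Pgf and Angpt2 and of Tm4sf1, Rgs5 and Epas1 in the 4 groups (horizontal axis; pheo, pheochromocytoma). Points are arrays and bars are group means; hyperplasia lies above the young pools and the tumours above the older pools for Tm4sf1, Rgs5 and Epas1, and the tumours also for Angpt2 and Pgf.

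In hyperplasia, Angpt1, the activator of Tek, fell (-0.70 ± 0.17, SE; adjusted p = 0.0218, limma). Vegfb (-0.50 ± 0.15; 0.0480) and Vegfd, a lymphatic growth factor (-0.41 ± 0.11; 0.0250), fell too. Hgf, a growth factor for endothelial and epithelial cells, rose by 0.67 ± 0.19 (SE; adjusted p = 0.0481). Angpt1 was dim, at 4.92 and 4.86 in the young pools and 3.85 to 4.49 in hyperplasia. So was Vegfd, at 5.20 to 5.31 in the young pools and 4.66 to 4.95 in hyperplasia. Hgf was dim too, at 3.86 and 4.45 in the young pools, both below the first quartile of their arrays, and 4.56 to 5.28 in hyperplasia, so the size of its difference is uncertain. Angpt1 and Vegfd no longer passed when either young pool was left out (adjusted p of 0.199 and 0.124 for Vegfd, up to 0.151 for Angpt1). Hgf passed in 3 of 16 analyses without 1 array and Vegfb in 2 of 16, and without young pool 1 the rise of Hgf was 0.37 (adjusted p = 0.471).

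Of 14 other vascular receptors and co-receptors, 1 rose and 3 fell in hyperplasia, and 1 rose and 1 fell in the tumours. For this list and each list below, the share of all genes that passed was 8.89% in hyperplasia and 16.8% in the tumours. Plxnd1, the semaphorin receptor of endothelial cells, was at 7.95 and 8.04 in the young pools and 8.68 to 8.97 in hyperplasia. No array overlapped, and the rise of 0.82 ± 0.12 (SE; adjusted p = 0.00119, limma) passed in all 28 alternatives. In the tumours Plxnd1 rose by 0.61 ± 0.14 (SE; adjusted p = 0.00837), and by 0.34 without older pool 2 (0.249). Procr, the endothelial protein C receptor, was at 8.60 and 8.28 in the young pools and at 6.70 to 7.71 in hyperplasia. It fell (-1.24 ± 0.27, SE; adjusted p = 0.0114, limma), as did Notch4, an endothelial Notch receptor (-0.51 ± 0.13; 0.0258), and Ptprb, the phosphatase that acts on Tek (-0.46 ± 0.13; 0.0449). Notch4 also fell in the tumours (-0.46 ± 0.14, SE; adjusted p = 0.0440). When young pool 1 or 2 was left out, the hyperplasia values had adjusted p of 0.134 and 0.0730 for Procr, 0.204 and 0.126 for Notch4 and 0.320 and 0.130 for Ptprb. Ptprb passed in 6 of 16 analyses without 1 array, and Notch4 in the tumours in 4 of 16.

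Of 33 other endothelial genes, 1 rose and 2 fell in hyperplasia, and 1 rose and 0 fell in the tumours. The gene that rose in both was Tm4sf1, a surface protein of endothelial cells that many tumour cells make too. It was at 8.24 and 8.51 in the young pools, 9.69 to 10.79 in hyperplasia, 8.36 and 8.00 in the older pools and 9.50, 10.13, 10.06 and 10.02 in the tumours. Every mutant array lay above every wild-type pool. The rises were 1.81 ± 0.25 and 1.75 ± 0.27 (SE; adjusted p = 0.000610 and 0.00105, limma), and with the cortex markers in the fit the second was 1.06 (0.213). The 2 that fell in hyperplasia were Mmrn1 (-1.70 ± 0.40, SE; adjusted p = 0.0162, limma) and Lyve1 (-0.80 ± 0.18; 0.0156), both known as marks of lymphatic endothelium. Mmrn1 was at 6.97 and 6.24 in the young pools and at 4.16 to 6.19 (median 4.86) in hyperplasia, where array 3 was the highest. That median lay near the first quartiles of the arrays, 4.71 to 4.93, so the size of the Mmrn1 difference is uncertain. Neither passed without young pool 1 (adjusted p = 0.199 and 0.180) or without young pool 2 (0.0640 and 0.0723).

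Vash1, an inhibitor of vessel growth that endothelial cells secrete, was the only 1 of 11 inhibitors and vascular matrix genes to rise in either mutant tissue, by 0.43 ± 0.09 in hyperplasia and 0.34 ± 0.10 in the tumours (SE; adjusted p = 0.00868 and 0.0312, limma). None of the 11 fell in hyperplasia. In the tumours, 2 fell: Timp3, a protease inhibitor that also blocks VEGF-A binding to Kdr (-0.70 ± 0.15, SE; 0.00644), and Nid1, a basement membrane protein (-1.10 ± 0.30; 0.0222). Nid1 was at 11.61 and 11.68 in the older pools and 11.29, 10.23, 9.77 and 10.90 in the tumours. Without older pool 2 the tumour values were 0.29 for Vash1 (adjusted p = 0.270), -0.55 for Timp3 (0.152) and -1.06 for Nid1 (0.187), and without young pool 2 Vash1 in hyperplasia was 0.32 (0.196). In the tumours Vash1 passed in 11 of 16 analyses without 1 array and Nid1 in 13 of 16.

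Of 8 hypoxia-inducible factors and sensors, Epas1 (HIF-2 alpha), which is known to be high in both endothelium and chromaffin cells, rose in both mutant tissues. It was at 11.57 and 11.78 in the young pools, 12.49 to 12.98 in hyperplasia, 12.12 and 11.68 in the older pools and 12.31, 12.39, 12.52 and 12.85 in the tumours. The rises were 1.03 ± 0.15 and 0.62 ± 0.17 (SE; adjusted p = 0.000924 and 0.0210, limma); the first passed in all 28 alternatives and the second was 0.40 without older pool 2 (0.341) and 0.51 without tumour 4, which also missed the threshold. Vhl, which marks HIF proteins for degradation, fell in the tumours (-0.36 ± 0.11, SE; adjusted p = 0.0314); it was -0.20 without older pool 2 (0.456) and passed in 13 of 16 analyses without 1 array.

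Of 12 pericyte and smooth muscle markers, 0 passed in hyperplasia, and in the tumours Rgs5, a mark of pericytes, rose and Des fell. Rgs5 was at 8.28 and 8.20 in the older pools and at 9.65, 9.09, 10.27 and 11.75 in the tumours. All 4 tumours lay above the pools, at 1.95 ± 0.47 (SE; adjusted p = 0.0126, limma), a rise of 1.43 (0.00706) without tumour 4 and 1.91 (0.138) without older pool 2. In hyperplasia it was at 9.49 to 10.45 against 9.12 and 9.05, without overlap, and the difference of 0.86 ± 0.43 (SE) did not pass (adjusted p = 0.253), except without tumour 4 (0.0495). Des, the muscle filament protein, fell (-0.53 ± 0.16, SE; adjusted p = 0.0375) and passed in 12 of 16 analyses without 1 array.

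Markers of the remaining cell types gave these counts. Of 9 fibroblast markers, Pdgfra fell in hyperplasia (-0.80 ± 0.21, SE; adjusted p = 0.0294, limma) and Thy1 rose in the tumours by 0.87 ± 0.17 (0.00445). Of 15 macrophage and leukocyte markers, Cd74 rose in hyperplasia by 0.50 ± 0.13 (0.0303) and 0 passed in the tumours. Of 5 Schwann and sustentacular cell markers, S100b fell in the tumours (-1.44 ± 0.28; 0.00396) and Sox10 rose by 0.68 ± 0.22 (0.0491), and of 5 red blood cell genes 0 passed in either comparison. Of 11 chromaffin cell markers, 1 rose in hyperplasia, Phox2a, and 5 rose in the tumours, among them Ddc by 0.85 ± 0.18 (SE; adjusted p = 0.00649) and Phox2a by 0.81 ± 0.17 (0.00651). Neither passed without older pool 2, where the difference of Ddc was 0.45 (adjusted p = 0.219, limma) and that of Phox2a 0.50 (0.205), and Thy1 (0.138) and S100b (0.127) missed the threshold there too. Without young pool 2 Phox2a in hyperplasia missed it as well (0.0605). Sox10 passed in 6 of 16 analyses without 1 array, and Pdgfra and Cd74 in 14 of 16, failing without either young pool. Over the pericyte list the means were 8.16 to 8.20 in young wild type, 8.06 to 8.48 in hyperplasia, 7.60 to 7.63 in older wild type and 7.67 to 8.31 in the tumours.

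The genes most like the members were sought as those whose deviations from their group means, over 16 arrays, correlated best with those of the mean of the 10 members. They were Nhlrc3 (Pearson r = 0.96), Tmem37 (0.94), Fstl1 (0.93), Hspg2 (0.92), which encodes the basement membrane protein perlecan, and Lama4 (0.92), a laminin chain of vessel walls. Tumour 4 is the far point in each, and without it r was 0.84, 0.81, 0.73, 0.74 and 0.73. These values describe arrays that share their normalization, and no p is given.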

How the data were processed

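Total RNA was hybridised to 16 Affymetrix rat arrays. The deposited log2 values, 1 per probe set and array, were made by the authors with RMA per the submitters' processing notes; its version, and the set of arrays it was run on, are not stated. RMA quantile-normalizes arrays, so a shift shared by all genes is largely removed. The deposited arrays still differed, with medians of 6.51 to 6.61 and first quartiles of 4.71 to 4.93.

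The 57 control probe sets were left out. A linear model with 4 group levels over 16 arrays and no covariate (12 residual degrees of freedom) was fitted in limma (version 3.58.1, R 4.3.3), two-sided, with Benjamini-Hochberg adjustment over 31042 probe sets, and 0.05 as the threshold. The fit was tested on simulated data. A gene outside the members is its brightest probe set. The labels call the arrays biological replicates without naming animals, so p-values measure only the spread between these samples.

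Members, lists and the 2 sets of hyperplasia arrays were chosen with earlier results of these data known. Named were all members, and per list and mutant comparison up to 4 genes past the threshold by size, or the 2 with the smallest p. Alternatives changed the sex covariate, arrays left out, variance prior, dim filter, normalization, array weights, replicate block, cortex covariate and probe set summary.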

Additional observations from a re-analysis of the deposited data

Results flagged for a closer look

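Of 124 gene-by-group sets of 4 or 8 arrays tested with Dixon's criterion, 5 had an array standing apart from the rest. Chance gives about 1 in 20, so this number is no more than chance would give. The arrays are listed as a description. Among the members, Flt1 1369087_at in tumour 4 was at 6.98, above the next tumour at 6.56. Mmrn1 in hyperplasia array 3 was at 6.19, above the next at 5.08. In tumour 1, Icam1, an adhesion receptor for leukocytes, was lowest at 7.01 (next 7.43), Pdgfra highest at 7.84 (next 7.49) and Scarb1, the cortical receptor that takes up HDL cholesterol, highest at 11.90 (next 10.61).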

How the results depend on the processing

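Over the 5 comparisons and all alternatives, the members' differences kept their direction and their side of the threshold in 1680 cases, lost a call in 30 and gained 1 in 18, and differences that had not passed changed sign in 85; 0 called values changed sign. Against older wild type, the tumours had 0 called members with all arrays of discordant sex left out or with the cortex markers in the fit, and 0 to 2 with single arrays left out. The count over all probe sets was 4425, and 2931 with the discordant arrays left out, 1915 with only the groups compared, 1593 with the replicate block, 66 with the cortex markers, 2407 over gene means and 596 to 4781 with single arrays left out. Against young wild type, hyperplasia had 2296 over all probe sets, and 689 with 4 hyperplasia arrays left out (chosen after seeing the data), 556 with the replicate block, 345 with the cortex markers, 1393 over gene means and 564 to 2687 with single arrays left out. With the block, 1 member passed there, Esm1 (-1.67, adjusted p = 0.0294, limma), and 1 in the tumours, also Esm1 (1.28, 0.0393), while Tek did not (-0.62, 0.126). Between wild types, members called numbered 1 with the 4 hyperplasia arrays left out, with only the groups compared and over gene means, and 0 to 4 with single arrays left out. Between mutant tissues they numbered 3 over gene means and 6 to 8 with single arrays left out. Members were 10 genes in the fit over gene means and 13 probe sets in the other fits named here. No share over all features is given for the fits between wild types or between mutant tissues, so these counts cannot be set against such a share. With the cortex markers in the fit, the tumour differences of Star (0.15), Fdx1 (0.075) and Nr5a1 (0.069) turned positive; these genes belong to that covariate, and the cause of the other changes was not tested. Replicate numbers did not pair the samples: deviations of same-numbered arrays correlated at -0.08 to 0.05. The wild-type pools carry only numbers 1 and 2, and hyperplasia arrays 1 and 2 had low Esm1 (5.01 and 4.77). The Esm1 calls with the block thus depend on which arrays carry those numbers and are not read as a further result. Leaving out all discordant arrays removes both young pools, so it gives no value for comparisons with them. The interaction was not run on fewer groups.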
